A study of Mus musculus with 8 samples.

Results

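The 6 genes described here are the stress-response genes Gadd45a, Gadd45b and Gadd45g and the arrestin-domain genes Txnip, Arrdc3 and Arrdc4. They were taken by name, as every non-control probe that the scanner files assign to 1 of these genes, because genes of both families are known to respond to histone deacetylase inhibitors in other cells. The choice was made with earlier results of these data known. The rule found 8 of the 41174 probes on the array, for 6 of its 27670 gene names, with 2 probes each for Gadd45b and Txnip and 1 for each of the other 4 genes. All 8 probes stood well above background in both colours on every array, none was saturated, and all 8 were among the 25669 probes tested.

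RNA came from R1 mouse embryonic stem cells, an established line of pluripotent cells from the early mouse embryo, grown on gelatin in a medium with serum replacer. The butyrate group held 4 samples of cells kept for 15 passages in 0.2 mM sodium butyrate with no LIF. The LIF group held 4 samples of the same line in leukaemia inhibitory factor, the cytokine that maintains their pluripotency, and had no feeders. Butyrate, a short-chain fatty acid, blocks histone deacetylases. On each of 4 Agilent whole-genome arrays, Cy5 marked a butyrate sample and Cy3 the equally numbered LIF sample. No array had the dyes exchanged, so treatment and dye cannot be told apart, and neither can the presence of butyrate and the absence of LIF. No passage number is at hand here for the LIF samples, so a difference in time in culture cannot be told apart from treatment either. All samples are of 1 line. The labels call the 4 samples of a group independent without saying from what point their cultures were kept apart, so the spread behind the p-values may in part be technical.

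GADD45 proteins are small and have no enzyme activity of their own. They bind the kinase MAP3K4, which switches on the p38 and JNK stress kinases, they bind cell-cycle proteins and PCNA, and they have been linked to the removal of methyl groups from DNA through base and nucleotide excision repair. In frog embryos Gadd45a and Gadd45g act in the exit from pluripotency. Txnip, Arrdc3 and Arrdc4 are alpha-arrestins, adaptors that bring membrane proteins to ubiquitin ligases of the NEDD4 family for internalization. Txnip also binds and inhibits thioredoxin and lowers glucose uptake, and Txnip and Arrdc4 are textbook targets of the glucose-sensing factors MondoA and ChREBP with their partner Mlx. In human cancer cells GADD45B and TXNIP are among the genes raised by deacetylase inhibitors.

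The promoters of 5 of the genes are shown because sites for factors described at these genes were searched there, such as those that Oct-1 and NF-Y bind in human GADD45A. Each is the stretch of 250 bases before the annotated start, from RefSeq on build GRCm38.p6, 5′ to 3′ on the gene's own strand. Capitals mark matches, on either strand, to CCAAT (bound by NF-Y), ATGCAAA (the octamer motif of Oct factors without its last base), CACGTG (an E-box), GGGCGG (the GC box) and TATAAA (the TATA box), and in Txnip also to CACGAG in a repeat. No matches overlapped. The Arrdc4 promoter spans chr7:68749239-68749488 on the minus strand, that of Txnip chr3:96557707-96557956 on the plus strand, and that of Gadd45a chr6:67037408-67037657 on the minus strand. The Gadd45b promoter spans chr10:80929841-80930090 and that of Gadd45g chr13:51846425-51846674, both on the plus strand.
Arrdc4: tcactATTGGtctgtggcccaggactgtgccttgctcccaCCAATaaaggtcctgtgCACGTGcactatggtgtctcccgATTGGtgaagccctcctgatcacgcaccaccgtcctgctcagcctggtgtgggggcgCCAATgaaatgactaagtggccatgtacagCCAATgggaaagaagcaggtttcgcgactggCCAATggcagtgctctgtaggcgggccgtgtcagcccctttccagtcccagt
Txnip: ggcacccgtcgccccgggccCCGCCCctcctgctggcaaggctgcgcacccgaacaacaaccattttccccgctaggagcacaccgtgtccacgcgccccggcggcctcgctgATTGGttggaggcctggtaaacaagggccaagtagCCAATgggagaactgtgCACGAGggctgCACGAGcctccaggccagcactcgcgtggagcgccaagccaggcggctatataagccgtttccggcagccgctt
Gadd45a: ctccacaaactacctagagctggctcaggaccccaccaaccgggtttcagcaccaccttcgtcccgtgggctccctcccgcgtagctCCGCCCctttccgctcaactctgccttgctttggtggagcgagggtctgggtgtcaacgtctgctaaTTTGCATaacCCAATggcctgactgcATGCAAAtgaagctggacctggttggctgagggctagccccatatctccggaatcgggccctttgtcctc
Gadd45b: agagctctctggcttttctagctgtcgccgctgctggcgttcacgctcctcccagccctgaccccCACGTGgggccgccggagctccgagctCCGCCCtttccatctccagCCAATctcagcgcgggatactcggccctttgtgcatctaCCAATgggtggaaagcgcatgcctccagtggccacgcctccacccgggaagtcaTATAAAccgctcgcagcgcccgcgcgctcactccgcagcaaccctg
Gadd45g: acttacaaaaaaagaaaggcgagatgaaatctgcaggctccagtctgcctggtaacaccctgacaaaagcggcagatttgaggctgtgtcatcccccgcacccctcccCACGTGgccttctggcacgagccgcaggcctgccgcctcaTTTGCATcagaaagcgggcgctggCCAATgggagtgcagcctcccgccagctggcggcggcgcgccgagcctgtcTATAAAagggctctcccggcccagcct

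The Arrdc4 promoter held 6 copies of CCAAT, and 19 of the 32851 promoters of the table (0.0578%) held 6 or more, against 33.8% with at least 1 copy. It also held 1 E-box, present in 6.02% of all promoters. Txnip had 2 CCAAT matches, as did Gadd45b (10.1% of promoters have 2 or more), and 1 GC box (32.7% of promoters). Between bases 85 and 69 before the start, Txnip carried 2 copies of CACGAG, 5 bases apart and in the same direction. This is the spacing of the carbohydrate response element that MondoA and Mlx bind in human TXNIP. It was added to the search after the sequence had been seen, and it occurred in 1 promoter of the table.

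Gadd45a had the octamer motif at 2 places, on opposite strands on either side of its CCAAT box (4.12% of promoters have at least 1 octamer match and 0.247% have 2 or more). Gadd45g had 1 octamer match, and Gadd45b held none of these letters in this window. Gadd45b and Gadd45g each had 1 E-box and 1 TATA box, the second of which 12.4% of promoters hold. Arrdc3 has 3 entries in the table: the first held 1 CCAAT box, the second 2 GC boxes, and the third 1 of each. A match is a description of the letters in these windows and not a site shown to be bound in these cells.

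**Figure D1:**
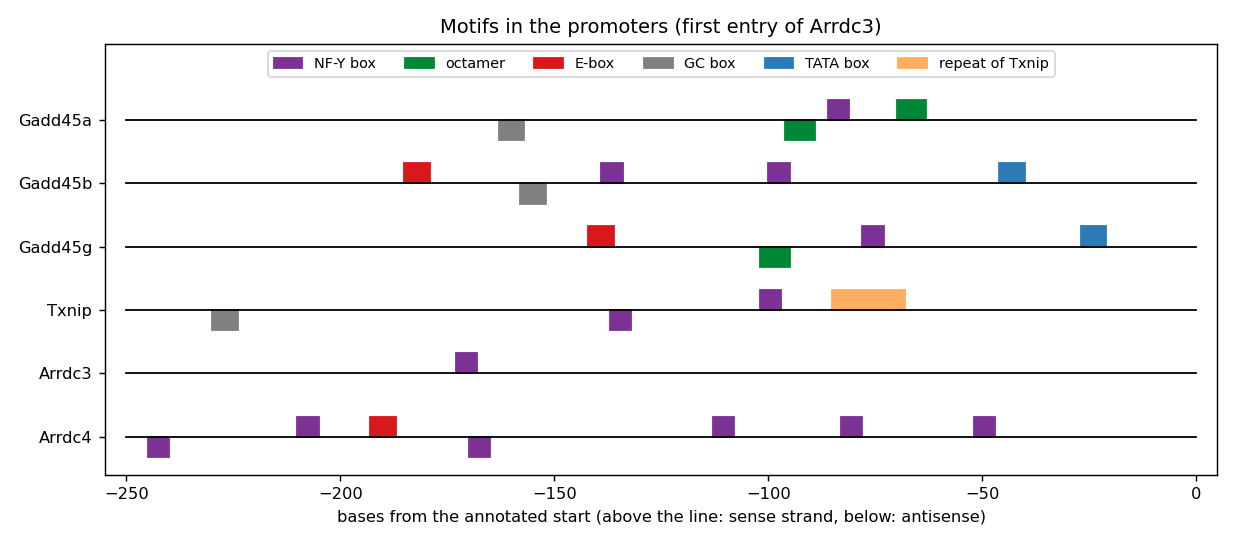
Positions of the motif matches in the 250 bases before the start of each of the 6 genes, in bases from the annotated start (0 at the right); blocks above a line are on the gene's own strand and blocks below it on the other. Arrdc4 shows 6 CCAAT blocks, Gadd45a 2 octamer blocks around 1 CCAAT block, and Txnip the CACGAG repeat.

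With butyrate, Arrdc4 fell 2.79-fold, Gadd45a fell 2.1-fold and Gadd45b rose 2.36-fold by its brighter probe and 2.03-fold by the other. Gadd45g rose 1.4-fold. Txnip and Arrdc3 were lower by 1.26-fold to 1.45-fold after loess normalization, calls that were lost when the arrays were centred on their medians instead, where the brighter Txnip probe and Arrdc3 had ratios above 0 and the dimmer Txnip probe was at −0.01. The 3 Gadd45 genes therefore did not move in 1 direction. Of the 3 arrestin genes, Arrdc4 had ratios below 0 on every array both after loess and with median centring. Txnip and Arrdc3 had them on every array after loess but not with median centring. All 8 probes, 3 higher and 5 lower, passed an adjusted p of 0.05 in limma's moderated test, in which the 4 ratios of a probe are set against 0 on the log2 scale. That count has to be read against the whole array, where 72.2% of tested probes passed, 39.7% higher and 32.5% lower. A change of at least 2-fold that passed was less frequent, at 5.7% of tested probes, and 4 of the 8 probes, of 3 of the 6 genes, were among them. The 6 genes were chosen with earlier results of these data known, and both Gadd45b probes are among the 4. These shares are therefore no independent comparison. The 4 butyrate values and the 4 LIF values did not overlap for any of the 8 probes, which was true of 65.3% of tested probes.

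In bulk RNA, fewer cells that express a gene and less of its RNA per cell cannot be told apart. Of the other cell types that such cultures could hold, trophoblast markers were higher in 10 of 10 genes in butyrate (median log2 ratio 2.56), with a summed processed signal of 100786 to 125644 in butyrate samples and 21114 to 25324 in LIF samples. Fibroblast markers were higher in 7 of 9 and lower in 2, with sums of 21748 to 25857 in butyrate samples and 3532 to 4356 in LIF samples. With median centring 7 of these were higher and 0 lower, and with arrays centred on the tested probes 5 were higher and 2 lower. Mesoderm and endoderm markers were higher in 8 of 10, in 6 with median centring and in 4, with 1 lower, when arrays were centred on the tested probes. Their sums were 2816 to 3286 in butyrate samples and 1132 to 1476 in LIF samples, and Mixl1, Gata4 and Afp were well above background on only 1 LIF array each. Of 9 stem cell markers 8 were lower and 1, Nanog, was higher, with sums of 285893 to 302661 in butyrate samples and 440389 to 498415 in LIF samples, and with median centring 5 of the 9 were lower. The Dppa5a probe used was flagged as saturated on all 4 arrays in both channels, so its ratio is uncertain and the stem cell sums, which include it, are lower bounds. Elf5 of the trophoblast list and Dcn of the fibroblast list were not well above background in any LIF sample. The part of these markers in the values of the 6 genes was not tested.

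Over the arrays, 62.7% to 63.9% of spots stood well above background in the butyrate channel and 57.9% to 61.2% in the LIF channel, and the median mean signal per spot was 110.0 to 111.4 in the butyrate channel and 62.8 to 66.0 in the LIF channel. The lowest correlation between the ratios of any 2 arrays was 0.932, and all 4 arrays lay on 1 slide with 1 scan time. Precision is limited by the number of arrays. Levels below are log2 channel values after loess and scaling of the average between arrays, they are compared within a probe only, and ratios are log2 of butyrate over LIF.

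**Figure D2:**
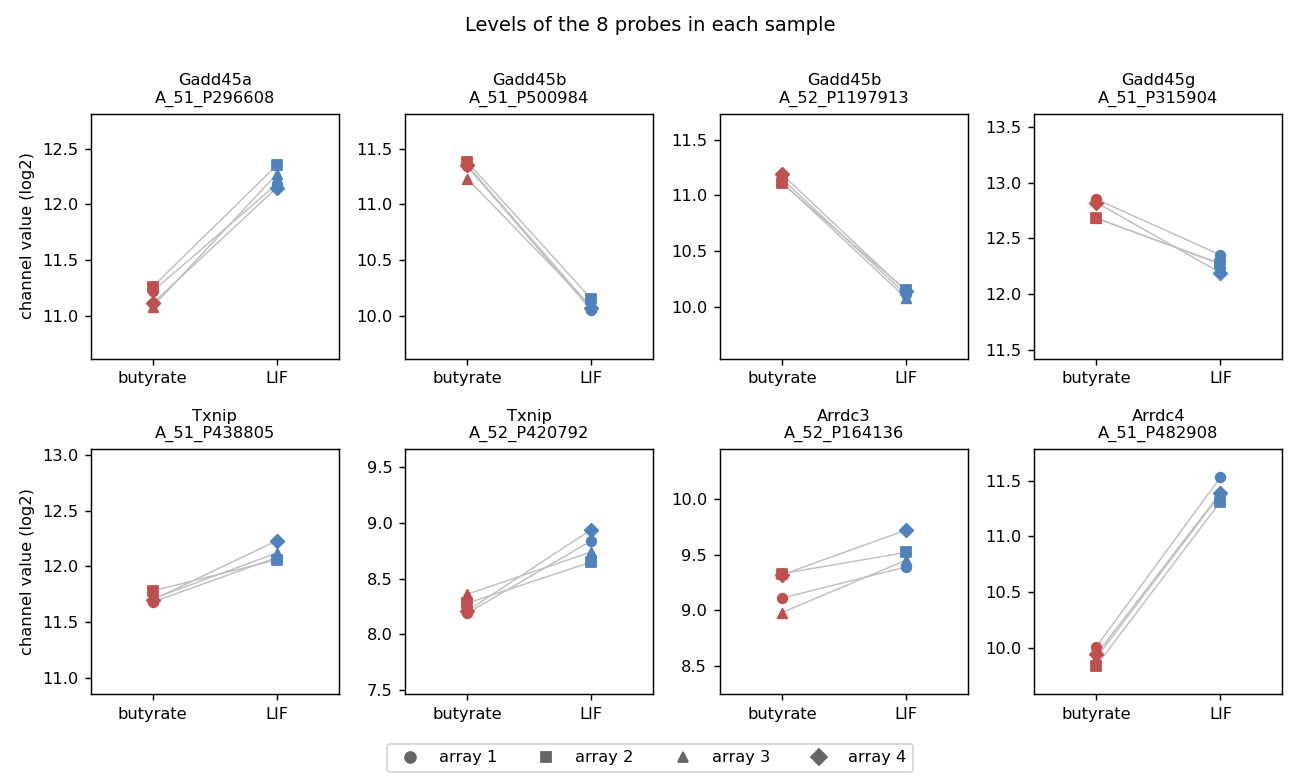
Log2 channel value of each of the 8 probes in the 4 butyrate samples (left, red) and the 4 LIF samples (right, blue), with lines joining the samples of 1 array and marker shapes giving the array; all panels span the same number of log2 units. Arrdc4 and Gadd45a lie lower in butyrate and Gadd45b higher by at least 0.89 log2 units between the nearest samples, while the gap for Arrdc3 is 0.07.

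Gadd45a, the family member that p53 induces after DNA damage, was lower in butyrate. Its probe A_51_P296608 read 11.22, 11.26, 11.08 and 11.11 in butyrate samples 1 to 4, against 12.18, 12.35, 12.27 and 12.15 in LIF samples 1 to 4. The 2 groups were 0.89 log2 units apart at their nearest values, and no sample of either group stood away from its own. The ratio was −0.95, −1.09, −1.19 and −1.05 on arrays 1 to 4, with a mean of −1.07 ± 0.10 (SD, n = 4 arrays; adjusted p 2.81e-07). Of all tested probes, 1.29% had a lower ratio. On the scanner's own processed scale, signals were 4481 to 5019 in butyrate samples and 10103 to 11045 in LIF samples.

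Gadd45b, the member that TGF-beta and NF-kappaB signals induce, was higher in butyrate by both of its probes. The brighter probe, A_51_P500984, read 11.34, 11.38, 11.23 and 11.35 in butyrate samples 1 to 4, against 10.05, 10.15, 10.08 and 10.07 in LIF samples 1 to 4. The other, A_52_P1197913, read 11.15, 11.11, 11.12 and 11.19 in butyrate samples, against 10.11, 10.15, 10.08 and 10.14 in LIF samples. Both probes thus separated the groups, by 1.08 and 0.96 log2 units between the nearest samples. The brighter probe had a mean ratio of 1.24 ± 0.06 (SD, n = 4; adjusted p 6.62e-08) and the other 1.02 ± 0.04 (adjusted p 1.19e-07). Higher ratios were seen for 2.43% and 3.89% of tested probes. The scanner's processed signals of the brighter probe were 6620 to 8064 in butyrate samples and 2998 to 3344 in LIF samples.

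Gadd45g, the member known for its induction by cytokines and its role in differentiation, was higher in butyrate by a smaller step. Probe A_51_P315904 read 12.85, 12.68, 12.68 and 12.82 in butyrate samples 1 to 4, against 12.35, 12.27, 12.27 and 12.19 in LIF samples 1 to 4. All butyrate samples were above all LIF samples, with 0.32 log2 units between the nearest. The mean ratio was 0.48 ± 0.10 (SD, n = 4; adjusted p 2.58e-05), and 14.5% of tested probes had a higher one. Array 4 gave the largest of the 4 ratios, 0.62, and the others lay between 0.41 and 0.50.

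Arrdc4, the arrestin whose gene follows glucose through MondoA and ChREBP, had the largest change of the 6 genes after loess. Probe A_51_P482908 read 10.01, 9.84, 9.91 and 9.94 in butyrate samples 1 to 4, against 11.53, 11.31, 11.38 and 11.39 in LIF samples 1 to 4. The nearest samples of the groups were 1.30 log2 units apart. Its ratios of −1.53, −1.47, −1.46 and −1.45 had the smallest spread of the 8 probes, with a mean of −1.48 ± 0.03 (SD, n = 4; adjusted p 2.01e-08), and 0.393% of tested probes had a lower one. Processed signals were 1588 to 1933 in butyrate samples and 5223 to 5949 in LIF samples.

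Txnip, the thioredoxin inhibitor, was lower in butyrate by both probes after loess, and by neither probe at an adjusted p of 0.05 when arrays were centred on their medians without loess. The brighter probe, A_51_P438805, read 11.68, 11.78, 11.71 and 11.70 in butyrate samples 1 to 4, against 12.08, 12.06, 12.12 and 12.23 in LIF samples 1 to 4. The dimmer probe, A_52_P420792, read 8.19, 8.28, 8.36 and 8.21 in butyrate samples, against 8.84, 8.65, 8.74 and 8.94 in LIF samples. The groups did not overlap for either probe, with 0.28 and 0.30 log2 units between the nearest samples. Mean ratios were −0.41 ± 0.10 (SD, n = 4; adjusted p 7.52e-05) for the brighter probe and −0.54 ± 0.18 (adjusted p 0.000109) for the dimmer, and 12% and 7.72% of tested probes had lower ones. With median centring the brighter probe averaged 0.17 (adjusted p 0.418) and the dimmer −0.01 (adjusted p 0.932). The dimmer probe's processed signals were 499 to 567 in butyrate samples and 836 to 1102 in LIF samples. An offset of 50 was added before the logarithm, which draws the ratio of a dim probe toward 0.

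Arrdc3, an arrestin known for its action on the beta-2 adrenergic receptor, had the smallest change after loess. Probe A_52_P164136 read 9.11, 9.33, 8.98 and 9.32 in butyrate samples 1 to 4, against 9.39, 9.52, 9.45 and 9.72 in LIF samples 1 to 4. The highest butyrate samples came within 0.07 log2 units of the lowest LIF sample, although each was below the LIF sample of its own array. The mean ratio was −0.34 ± 0.13 (SD, n = 4; adjusted p 0.000429) after loess and 0.25 (adjusted p 0.181) with median centring, so its direction depended on the scaling. Of all tested probes, 15.3% had a lower ratio and 36.4% a larger one in either direction.

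**Figure D3:**
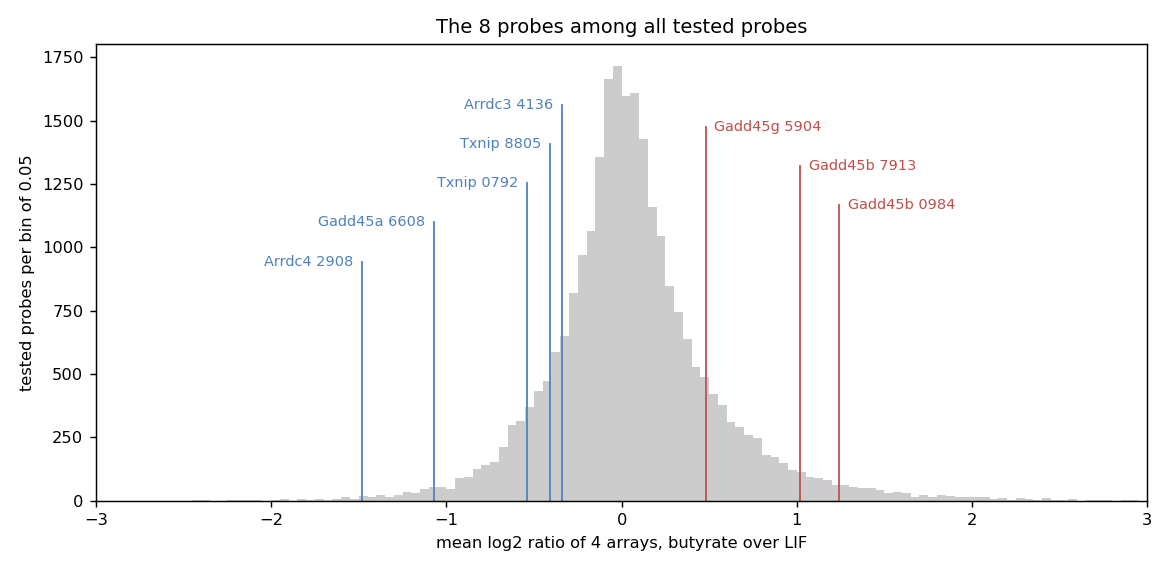
Number of tested probes (bars, bins of 0.05) at each mean log2 ratio of butyrate over LIF after loess, with lines for the 8 probes, labelled by gene and the last 4 characters of the probe name (red higher, blue lower in butyrate). Arrdc4, Gadd45a and both Gadd45b probes lie in the tails, with 0.393%, 1.29%, 2.43% and 3.89% of tested probes beyond them, while Txnip and Arrdc3, which average 0.17, −0.01 and 0.25 with median centring, lie nearer the middle.

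The scaling matters because loess placed the median ratio of all tested probes at 0.03, whereas centring each array on the median of all its non-control spots placed it at 0.37. Of the called probes, 55% were higher in butyrate after loess and 91.9% with median centring (15465 called, 1245 of them lower). The share was 46.3% with the log ratio as the scanner gave it (9148 higher, 10629 lower), 44.9% with the authors' deposited value table (8901 higher, 10921 lower) and 50.3% with each array centred on its tested probes instead (8541 higher, 8425 lower). The balance of calls over the whole array therefore had no settled direction. Array 2 stood apart under median centring on all non-control spots, with a median over tested probes of 0.64, against 0.30, 0.28 and 0.29 on arrays 1, 3 and 4. Gadd45b averaged 1.83 and 1.62 on this scale and Gadd45g 1.04. Gadd45a averaged −0.49 (adjusted p 0.02), with a ratio of 0.00 on array 2 and −0.54 to −0.81 on the others, and −0.66 without array 2. Arrdc4 averaged −0.88 (adjusted p 0.00147), with −0.39 on array 2 and −1.01 to −1.09 on the others, and −1.05 without it.

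Relative to the median of tested probes under median centring, the order of the genes was that seen after loess. Gadd45b stood 1.47 and 1.25 above it and Gadd45g 0.67 above it. Gadd45a stood at −0.86 and Arrdc4 at −1.25 from it, Txnip at −0.20 and −0.38, and Arrdc3 at −0.12. Without array 2, the 2 Txnip probes averaged −0.05 and −0.15 under median centring and Arrdc3 averaged 0.07. With centring on the tested probes, the dimmer Txnip probe passed at −0.39 (adjusted p 0.00246), and the brighter one at −0.21 and Arrdc3 at −0.13 did not. Gadd45a, Gadd45b, Gadd45g and Arrdc4 kept their direction and their call under every alternative run. Txnip and Arrdc3 kept theirs under those that did not replace loess by centring.

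**Figure D4:**
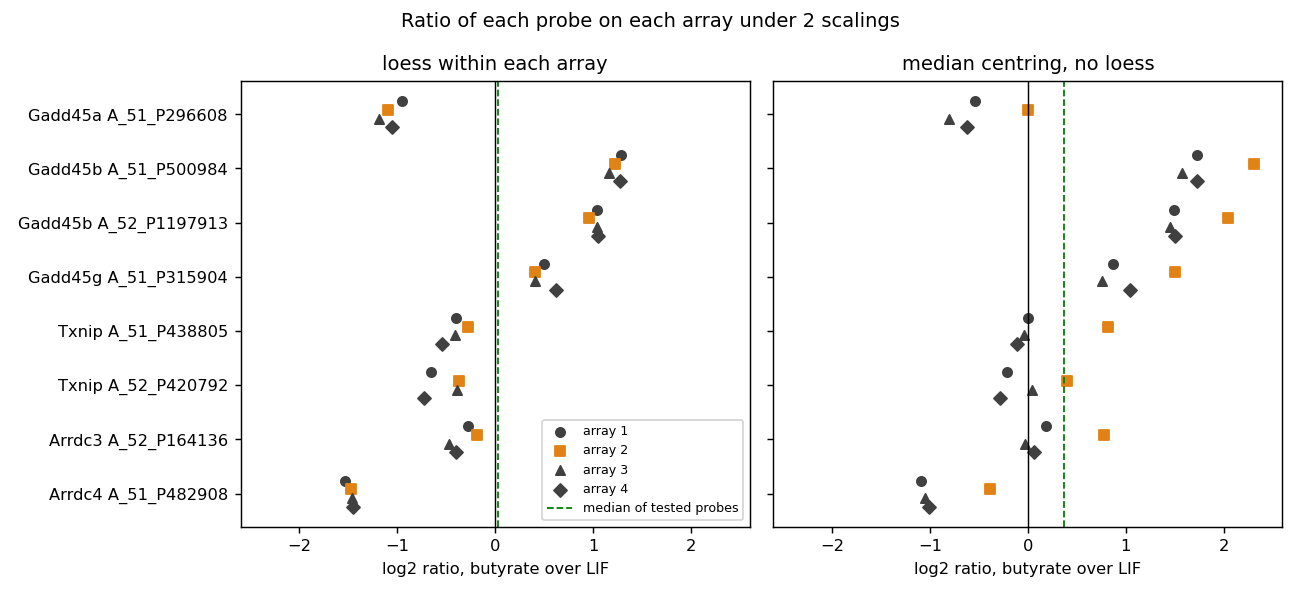
Log2 ratio of butyrate over LIF for each of the 8 probes on each of the 4 arrays, after loess within the array (left) and after median centring with no loess (right); array 2 is orange and the dashed line is the mean ratio's median over tested probes, 0.03 and 0.37. Gadd45b, Gadd45g and Arrdc4 keep their side of 0 on all arrays in both panels, Gadd45a is at 0.00 on array 2 on the right, and Txnip and Arrdc3 spread over both sides of 0 on the right.

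The nearest protein-coding gene with a tested probe on each side of a member was read as a description of the neighbourhood. Genes without a tested probe were passed over, so these need not be the adjacent genes, and their ratios are those after loess. Gng12 and Serbp1 lie on either side of Gadd45a and had ratios of 1.38 ± 0.09 and −0.42 ± 0.09, both past the threshold and in opposite directions. Of the neighbours of Gadd45b, Lmnb2 was at −0.33 ± 0.15 and passed, and Gng7 at −0.06 ± 0.03 did not (adjusted p 0.177). Gadd45g lies between Sema4d, at 0.07 ± 0.09 (adjusted p 0.218), and Syk, which fell by 1.20 ± 0.17 on the log2 scale. Txnip lies between Hjv, at −0.29 ± 0.11, and Polr3gl, at −1.42 ± 0.12, which was further from 0 than Txnip itself. The nearest tested genes to Arrdc3 were Fam172a (0.15 ± 0.04) and Adgrv1 (−0.22 ± 0.11), and those to Arrdc4 were Fam169b (0.30 ± 0.06) and Nr2f2 (0.31 ± 0.12), all 4 past the threshold. Neighbours on the 2 sides of Arrdc4 thus had ratios above 0 where Arrdc4 had one below 0. Median ratios of tested probes on the chromosomes that carry the members were 0.02 on chromosome 3 (Txnip), 0.04 on 6 (Gadd45a), −0.06 on 7 (Arrdc4), −0.03 on 10 (Gadd45b) and −0.01 on 13 (Gadd45g and Arrdc3). Chromosomes 8, 11 and 19, which carry no member, had higher medians of 0.25, 0.19 and 0.16. Listed genes below were not set against the medians of their own chromosomes, and the cause of these medians was not tested.

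For members past the threshold with at least 1.5-fold, the genes most alike over the 4 arrays were found by the root mean square difference of the 4 ratios. Those nearest Gadd45a were Pnrc2, at −1.04 ± 0.11 with a difference of 0.034, and Galk2, at −1.04 ± 0.15 with a difference of 0.052. Gadd45b was nearest to Ppp1r18 (1.24 ± 0.08, difference 0.026) and Septin11 (1.27 ± 0.08, difference 0.043). Arrdc4 was nearest to Tcf15 (−1.51 ± 0.02, difference 0.035) and Hpdl (−1.43 ± 0.03, difference 0.046). Within a difference of 0.1 lay 14 genes for Gadd45a, 65 for Gadd45b and 15 for Arrdc4. With 4 arrays of 1 contrast, this likeness is of size only.

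The proteins that GADD45 acts on were read from a list of 17 genes, all tested. With the brightest tested probe for each gene, 9 rose, 4 fell and 4 did not pass, with a median ratio of 0.20. Over all 17198 genes tested, 41.3% were higher and 32.9% lower, with a median of 0.03. Cdkn1a, the p21 inhibitor of cyclin-dependent kinases and a partner of GADD45 proteins, rose by 1.06 ± 0.12 on the log2 scale (2.09-fold, adjusted p 4.33e-07). Map2k4, a kinase between MAP3K4 and JNK, rose by 1.02 ± 0.02 (2.03-fold, adjusted p 9.74e-08). Ccnb1, the cyclin B1 whose complex with Cdk1 GADD45 proteins bind, fell by 0.49 ± 0.07 after loess, but its ratio was 0.04 with median centring. Mapk11, the p38-beta kinase, was at −0.26 ± 0.07 after loess and 0.25 with median centring. Among genes picked out after their values were seen, the p38-alpha gene Mapk14 was at 0.72 ± 0.04, the MAP3K4 gene itself at 0.20 ± 0.07, Pcna at 0.39 ± 0.06, and Cdk1 at −0.01 ± 0.03, which did not pass. Probes of Map3k4 and Mapk8 passed in opposite directions after loess.

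Of 21 regulators of Gadd45 transcription, 20 were tested, and 9 rose, 8 fell and 3 did not pass (median 0.04). Atf3, a stress-induced transcription factor, rose 3.99-fold (2.00 ± 0.08, adjusted p 1.17e-08), and Smad4, the shared effector of TGF-beta and BMP signals, rose 1.58-fold (0.66 ± 0.01). Atf4, a factor of the integrated stress response, was at −0.46 ± 0.11 after loess and 0.13 with median centring. Pou2f1, the Oct-1 factor that binds the octamer motif, was at −0.44 ± 0.31 after loess, with −0.09 on array 2 and −0.79 on array 4, and at 0.15 with median centring. Genes named after their values were seen are Trp53 at 0.26 ± 0.10, Rela at 0.66 ± 0.08 (second probe 0.31), Egr1 at −0.25 ± 0.09 (0.34 with median centring), and the NF-Y subunits Nfya at −0.14 ± 0.04 (second probe 0.07), Nfyb at −0.35 ± 0.08 and Nfyc at 0.31 ± 0.15. The 3 NF-Y subunits were all above 0 with median centring, at 0.44, 0.20 and 0.90. Nfkb1 and Foxo1 each had probes that passed in opposite directions after loess, with the brightest probes at −0.25 and 0.30. The other Nfkb1 probes were at 0.60 and 0.44, and that of Foxo1 at −0.13. With median centring the brightest Nfkb1 probe was at 0.33 and did not pass.

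Active DNA demethylation, in which GADD45 proteins have been described, was represented by 15 genes, of which 6 rose, 7 fell and 2 did not pass (median −0.06). Tet1, a dioxygenase that oxidizes methylcytosine and is abundant in embryonic stem cells, fell 2.62-fold (−1.39 ± 0.34, adjusted p 7.59e-06), with −0.93 on array 2 and −1.36 to −1.72 on the others. Apobec1, a cytidine deaminase, fell by 0.61 ± 0.10 and was at −0.08 with median centring. The repair nuclease genes Ercc4 and Ercc5 rose by 0.74 ± 0.03 and 0.57 ± 0.06, although a second probe of Ercc4 was at −0.37. Picked out after their values were seen, the glycosylase gene Tdg was at 0.35 ± 0.03 with a second probe at 0.01, Tet2 at −0.60 ± 0.30 with a second probe at −0.33, and Tet3 at 0.49 ± 0.11 with a second probe at 0.00. With median centring Tet2 was at −0.20 and did not pass.

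**Figure D5:**
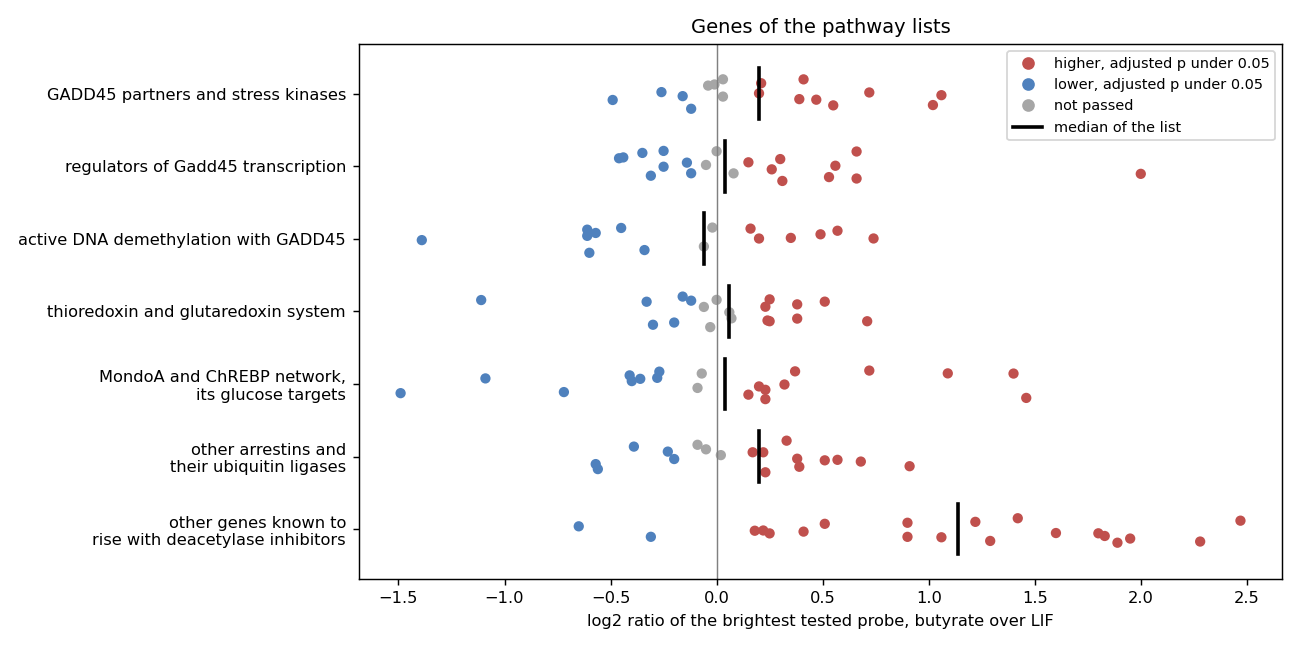
Log2 ratio of butyrate over LIF after loess for each tested gene of the 7 lists (brightest tested probe), red where higher and blue where lower at an adjusted p under 0.05, grey where not passed, with a bar at each list's median; vertical scatter within a list has no meaning. Medians lie between −0.06 and 0.20 for 6 lists and at 1.14 for the other genes known to rise with deacetylase inhibitors, and all of these shift upward with median centring, by which 28 of the 40 listed genes drawn in blue turn to ratios above 0.

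Txnip's direct partner system, the thioredoxin and glutaredoxin genes, had 8 of 19 higher, 6 lower and 5 not passed (median 0.06). Txnrd1, the cytosolic thioredoxin reductase, rose 1.64-fold (0.71 ± 0.05, adjusted p 8.13e-07), and Nxn, the thioredoxin-like nucleoredoxin, rose 1.42-fold (0.51 ± 0.08). Txnrd3, a reductase known chiefly from testis, fell 2.16-fold (−1.11 ± 0.08). Txn2, the mitochondrial thioredoxin, was at −0.33 ± 0.10 after loess and 0.23 with median centring. Thioredoxin itself, Txn1, looked up after its values were seen, was at 0.25 ± 0.07. Probes of Glrx2 passed in opposite directions after loess, at −0.12 for the brightest and 0.28 for the other.

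Of 22 genes of the MondoA and ChREBP network and its glucose targets, 20 were tested, and 10 rose, 8 fell and 2 did not pass (median 0.04). Slc2a1, the glucose transporter that TXNIP draws from the membrane, rose 2.75-fold (1.46 ± 0.03, adjusted p 2.1e-08). The neuronal-type glucose transporter gene Slc2a3 rose 2.64-fold (1.40 ± 0.12), with a second probe at 0.20. Acacb, an acetyl-CoA carboxylase gene, fell 2.81-fold (−1.49 ± 0.07, adjusted p 3.14e-08), close in size to Arrdc4, and Mxd3, of the MAX dimerization family, fell 2.13-fold (−1.09 ± 0.11). The factors themselves, named after their values were seen, were at 0.37 ± 0.06 (Mlxip, the MondoA gene), 0.20 ± 0.05 (Mlxipl, the ChREBP gene, with a second probe at −0.04) and 0.32 ± 0.10 (Mlx). Each of the 3 was higher in butyrate and passed by its brightest probe, while Arrdc4 was lower. The glycolytic regulator Pfkfb3, also named afterwards, was at 1.09 ± 0.07, with a second probe at 0.05.

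The other arrestins and the ubiquitin ligases that work with them had 18 of 20 genes tested, of which 10 rose, 5 fell and 3 did not pass (median 0.20). Ndfip2, an activator of NEDD4-family ligases, rose 1.87-fold (0.91 ± 0.05), with other probes at 0.03 and 0.34, and the ligase gene Smurf2 rose 1.60-fold (0.68 ± 0.04). Arrdc2, another alpha-arrestin, fell 1.48-fold after loess (−0.57 ± 0.07) and was at −0.21 with median centring. Vps26a, an arrestin-fold subunit of the retromer, was at −0.56 ± 0.07 after loess and 0.01 with median centring. Named after their values were seen, the beta-arrestins Arrb1 and Arrb2 were at 0.39 ± 0.05 (second probe 0.07) and 0.57 ± 0.04, Arrdc1 at 0.23 ± 0.08, Arrdc5 at −0.20 ± 0.18, and Itch, a ligase that binds TXNIP, at 0.38 ± 0.17. Among the alpha-arrestins, Arrdc1 was therefore above 0 after loess, and Txnip, Arrdc2, Arrdc3, Arrdc4 and Arrdc5 were below 0. Arrdc5 had −0.48 on array 2 and −0.07 to −0.13 on the others, and was at −0.05 with median centring. Probes of Vps26b, Wwp2, Smurf1 and Tsg101 passed in opposite directions after loess.

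Against these, 18 of 20 other genes known to rise with deacetylase inhibitors rose and 2 fell, with a median of 1.14, and 11 of them passed with at least 2-fold. This list was chosen with earlier results of these data known, so its counts are no independent comparison for the 6 genes. Mt2, Krt8 and Krt18, 3 of the 18, were saturated in butyrate on all 4 arrays, so their ratios are bounds, and with saturated spots left out 15 genes were higher. Gsn, the actin-severing protein gelsolin, rose 5.53-fold (2.47 ± 0.04, adjusted p 5.84e-09), and Tgm2, a transglutaminase, rose 4.85-fold (2.28 ± 0.04), with other probes at 0.70 and 0.87. Bmf, a pro-apoptotic BH3 protein, fell by 0.65 ± 0.12 and was at −0.06 with median centring. Cdkn2d, an inhibitor of cyclin-dependent kinases, was at −0.31 ± 0.06 after loess and 0.29 with median centring. With median centring, 14 of 17, 13 of 20, 7 of 15, 16 of 19, 12 of 20, 12 of 18 and 18 of 20 genes of the 7 lists, in the order given, were higher, and 4 genes in all were lower. Of all tested genes, 57.2% were higher and 4.92% lower under that centring, a share near that of several of the lists. Of the 6 genes described here, Gadd45b and Gadd45g had ratios above 0 and Gadd45a, Txnip, Arrdc3 and Arrdc4 below 0 after loess, while under median centring the brighter Txnip probe and Arrdc3 were above 0 and neither Txnip probe nor Arrdc3 passed. The counts of the lists are descriptions, and no test of a list was made.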

How the data were processed

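R1 cells in butyrate (4 samples) and in LIF (4 samples) were measured on 4 2-colour Agilent arrays. Agilent Feature Extraction 9.1 is the software named, per the submitters' processing notes. The deposited scanner files hold the intensity of each spot in both channels. Per the file headers, the same software subtracted the background and corrected for dye to give a processed signal and a log10 ratio of Cy5 over Cy3. The 8 deposited files are 4 distinct ones, 1 for each array. The authors' deposited value table holds log2 values, with a median of 6.487 in the column of butyrate sample 1. Each column had a correlation of at least 0.9996 with its own channel. No genome build is given in the sources used here, so only promoter coordinates of the RefSeq table are printed.

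Background was corrected by normexp with an offset of 50 on the mean and background signals, followed by loess within the array with control spots at weight 0, all in limma 3.58.1 (R 4.3.3). Of 45018 spots 43379 were not controls. Replicate spots of a probe were averaged, without 14 spots that carried an outlier flag. A probe was tested if 3 or more arrays flagged it as well above background in either channel. The test was lmFit and eBayes on the 4 log2 ratios against 0, with Benjamini-Hochberg adjustment over all 25669 tested probes. Taking ratios within arrays removes the array as a block. The pairing comes from the shared array: deviations from the group means correlated, for samples of the same number, at 0.25, 0.1516, 0.3029 and 0.2088, and for other numbers at −0.2236 to 0.0907. Channel levels are log2 values after loess and Aquantile. Probes were named through the accession (22951), symbol (6659) or synonym (3109) of the RefSeq table, and 8455 kept the file's name.

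The members and lists were chosen with earlier results of these data known. Named are all member probes, from each list up to 2 genes with the largest increase and 2 with the largest decrease past the threshold with the same sign on all arrays, and the 2 genes most alike to each member past 1.5-fold. The 7 lists hold 133 genes, of which 128 were tested. Not tested, for low signal, were Trp63, Pklr, G6pc, Sag and Arr3, and of the markers Lum, while Fgf4 was not found by name. A comparison of the protein sequences was planned and is not reported here. The steps were tested on simulated data. Alternatives changed the background correction, normalization, filters, variance model, block and replicates, and are given in the closing section. Python 3.11.15 with matplotlib 3.10.9 drew the figures.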

Additional observations from a re-analysis of the deposited data

Results flagged for a closer look

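Among 58 sets of 4 values checked for a sample far from the others, 24 of them of the members, 1 stood out. The ratio of the Gadd45b probe A_52_P1197913 on array 2 was 0.96, against 1.04 to 1.05 on the other 3 arrays, a gap of 0.868 of the whole range, above Dixon's critical value for 4 samples. Chance marks about 1 in 20 such sets. The ratio of the brighter Gadd45b probe on array 2 was 1.22, inside the range of its other arrays.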

How the results depend on the processing

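Every ratio of a member probe kept its direction and call under the alternatives that did not replace loess by centring: no background correction, an offset of 16, the log ratio as the scanner gave it, the authors' value table, other filters on dim or saturated probes, 1 probe per gene, another variance model, other treatments of the replicate block, and each replicate left out (15 in all, 14 for the second probes of Gadd45b and Txnip). The named ratios from the lists did so too, while neighbours and genes picked after their values were seen were not followed through them. Of called probes, 44.9% were higher with the authors' value table and 46.3% with the scanner's log ratio, against 55% after loess. Listed genes called lower numbered 37 to 47, against 40. Over these the ratio ran from −1.15 to −1.03 for Gadd45a, 1.21 to 1.26 and 0.97 to 1.04 for Gadd45b, 0.44 to 0.51 for Gadd45g, −0.47 to −0.37 and −0.82 to −0.47 for Txnip, −0.51 to −0.29 for Arrdc3 and −1.65 to −1.46 for Arrdc4. Leaving out 1 replicate gave 16366 to 18402 called probes. Without the replicate block 18038 probes were called, and with a random block 18674, which changed no call of a member. Median centring without loess gave 1245 probes, 2 member probes and 4 listed genes as lower. It put the brighter Txnip probe at 0.17, the dimmer at −0.01 and Arrdc3 at 0.25, none past the threshold, and turned Atf4 to 0.13, Ccnb1 to 0.04, Cdkn2d to 0.29, Mapk11 to 0.25, Pou2f1 to 0.15, Txn2 to 0.23 and Vps26a to 0.01. A pair of further settings were chosen after seeing the data. Centring on the median of the tested probes gave 3 member probes and 20 listed genes as lower, with the dimmer Txnip probe still called at −0.39 (adjusted p 0.00246), the brighter at −0.21 (adjusted p 0.0859) and Arrdc3 at −0.13 (adjusted p 0.245). Median centring without replicate 2 gave 16752 probes as higher and 3277 as lower, 2 member probes and 13 listed genes as lower, Txnip at −0.05 and −0.15 (adjusted p 0.329 and 0.0505), Arrdc3 at 0.07, Cdkn2d at 0.15, Mapk11 at 0.14 and Txn2 at 0.08. In that setting Atf4 (−0.03), Pou2f1, Ccnb1 and Vps26a (each −0.14) were below 0 again. Of these, Ccnb1 and Vps26a passed, and Atf4 (adjusted p 0.68) and Pou2f1 (adjusted p 0.143) did not. The cause of these differences was not tested. All 8 member probes stood well above background, but the ratio of the dimmer Txnip probe was −0.82 with the scanner's log ratio and −0.54 with the offset of 50. These settings also differ in background and dye correction, and the cause of the gap was not tested.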
